A study of Homo sapiens with 6 samples.

Results

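The genes described here are 38 genes known from many tissues to be raised by glucocorticoids through the glucocorticoid receptor, taken by symbol from the 27234 gene rows of one table of raw counts. All 38 symbols were found, and the rule that names them uses no measured value. RNA was measured in A673, a human Ewing sarcoma cell line that carries the EWS-FLI1 fusion, an aberrant transcription factor made of part of EWSR1 and the DNA-binding part of the ETS protein FLI1. The siFLI1 group had 3 libraries from cells transfected with siRNA oligonucleotides against FLI1, and the siControl group had 3 libraries from cells transfected with scrambled oligonucleotides. Cells of both groups grew in medium with fetal bovine serum, both carried the fusion, and RNA was isolated 48 h after transfection. The labels name no glucocorticoid treatment in either group, so the comparison asks how these genes differ with FLI1 targeted in serum-containing medium. All libraries come from 1 line, and in bulk RNA fewer cells that express a gene cannot be told apart from less of its RNA per cell.

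The glucocorticoid receptor, encoded by NR3C1, is held in the cytoplasm by HSP90 and its cochaperones, and on binding a glucocorticoid it moves to the nucleus. There it binds response elements built of paired inverted copies of a short core and raises a set of genes that damp inflammation, shift metabolism towards fuel release and feed back on the receptor itself. Most of these genes also answer to other signals, such as metals, growth factors, hypoxia and stress kinases, so that their levels are not a readout of the receptor alone. The title of the series concerns binding between ETS proteins and this receptor in Ewing sarcoma.

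Values by library are listed in the order of replicates 1, 2 and 3. Counts assigned to genes ranged from 417145 to 1893606 in siFLI1 and from 1248395 to 1790051 in siControl libraries. The lowest, siFLI1 replicate 3, had 10.1% of its header total assigned to genes, against 41.2% to 61.0% in the other 5, and it stood apart on the first principal component, as siControl replicate 1 did on the third. The targeted gene, FLI1, was at 19.0, 42.5 and 24.1 CPM in the siFLI1 libraries, against 63.0, 69.1 and 62.4 CPM in the siControl libraries, without overlap. It averaged 28.5 ± 12.4 CPM in siFLI1 libraries and 64.8 ± 3.71 CPM in siControl libraries (SD, n = 3 each), where CPM stands for counts scaled to library size with trimmed mean of M values factors (TMM). Its log2 fold change was −1.16 ± 0.36 (± its SE, with an adjusted p of 0.17 in edgeR), and reads of the fusion and of FLI1 itself share this 3′ end. Of 7 markers of the Ewing line, all were measured and all had a lower mean in siFLI1, 2 of them past the threshold in edgeR, where 0.117% of all tested genes were called lower. Of 6 blood markers and 6 hepatocyte markers, 1 and 0 passed the filter on low counts. Among those that did not, the blood marker PTPRC was at 0, 0 and 42.8 CPM in siFLI1 and 0, 0 and 5.13 CPM in siControl libraries. The summed level of the hepatocyte markers was 13.4, 4.65 and 29.45 CPM in siFLI1 and 1.62, 0.586 and 0 CPM in siControl libraries. Of 6 fibroblast markers, 3 passed the filter and all 3 lay higher in every siFLI1 library, as 8.93% of all tested genes did. The 6 had a summed level of 1296 to 1341 CPM in siFLI1 and 324 to 379 CPM in siControl, and most of it was COL1A2. The defining markers DCN and LUM were at or under 5.36 CPM in every library. PDGFRA, also below the filter, had 2, 1 and 0 counts in the siFLI1 libraries and 25, 0 and 1 counts in the siControl libraries. The part of the Ewing and fibroblast marker differences in the results that follow was not tested.

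Of the 38 target genes, 36 had at least 1 count and 25 passed the filter, which asks for about 6.5 CPM in 3 libraries. Among these 25, none was higher and none lower in siFLI1 at an adjusted p of 0.05 (edgeR quasi-likelihood test, Benjamini-Hochberg over 9420 genes), where 1.34% of all tested genes were higher, 0.117% lower and 1.45% either. At an unadjusted p below 0.05 in the same edgeR test, 3 of the 25 were higher (12% against 6.62% of all genes), NEDD9, CEBPD and MAP3K6, and 1 was lower, TSC22D3, where 4.13% of all genes were. The libraries of the groups did not overlap for 5 higher members (20% against 8.93%) and 1 lower member, again TSC22D3, where 7.71% of all genes were lower. Overlap was judged on CPM with TMM factors, 1.233 for siControl replicate 1 and 0.936 to 0.987 for the other libraries. Scaled by assigned counts alone, siControl replicate 1 would lie above siFLI1 replicate 1 for DUSP1, KLF6 and STOM. It would lie slightly above siFLI1 replicate 3 for CEBPD. The shares of all genes on that scale were not computed. TSC22D3 passed the filter through siControl alone, where it is higher, so its place in these counts says nothing about the members. The same holds for DUSP1, 1 of the 5 higher members without overlap. It reached the cutoff of the filter in 3 siFLI1 libraries but in only 1 siControl library. DESeq2 called 1 member higher, NEDD9, where it called 2.3% of all genes, and limma-voom called none, where it called 1.55%. In edgeR, no member was called with scaling by total counts (1.22% of all genes called), by upper quartiles (1.39%) or by the size factors of DESeq2 (1.41%), with a filter of 5 CPM in 3 libraries (1.3%) or with a replicate term (1.07%). Nor was any called in edgeR without siFLI1 replicate 1, 2 or 3, where 0.827%, 0.735% and 1.29% of all genes were, or without siControl replicate 1, 2 or 3, where 1.05%, 0.643% and 0.718% were. The log2 fold change, siFLI1 over siControl, was above 0 for 15 of the 25 (60%, against 50.4% of all tested genes) and below 0 for 10, with a median of 0.23 and a range from −1.61 to 1.47. The median over all tested genes was 0.01. The members' median was 0.09, 0.07 and 0.125 when siFLI1 replicate 1, 2 or 3 was left out, and it was 0.11 after scaling by total counts, which moved the median of all genes to −0.12.

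**Figure D1:**
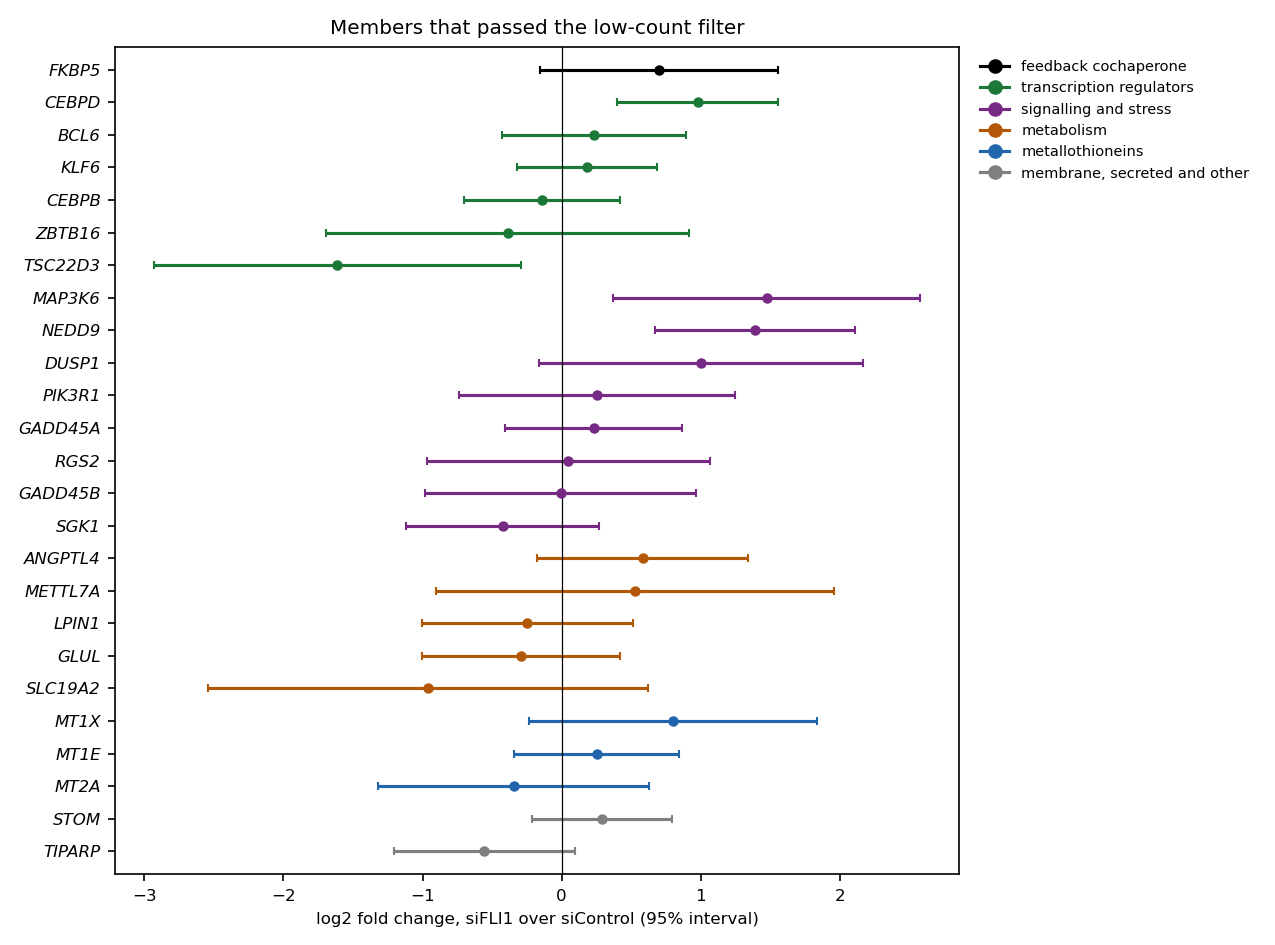
Log2 fold change of siFLI1 over siControl for the 25 members that passed the low-count filter, with 95% intervals from the edgeR fit, ordered by role and coloured by it. The intervals, not adjusted over genes, lie wholly above 0 for CEBPD, MAP3K6 and NEDD9 and wholly below 0 for TSC22D3, and the other 21 span 0.

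The feedback gene FKBP5, a cochaperone that lowers the receptor's affinity for hormone and is among the most used reporters of receptor activity, was at 53.1, 51.15 and 34.8 CPM in the siFLI1 libraries, against 16.2, 45.1 and 26.5 CPM in the siControl libraries. The highest siControl library lay above the lowest siFLI1 library, so the groups overlapped. The mean was 46.4 ± 10.05 CPM in siFLI1 and 29.25 ± 14.7 CPM in siControl (SD, n = 3 each), a log2 fold change of 0.70 ± 0.40 (± its SE, with a 95% interval of −0.16 to 1.56 and an adjusted p of 0.591 in edgeR). It ran from 0.37 without siControl replicate 1 to 1.17 without siControl replicate 2.

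Of the 11 transcription regulators, 6 passed the filter, and 3 of these had a positive and 3 a negative log2 fold change. TSC22D3, also called GILZ, is a leucine zipper protein that carries much of the receptor's restraint on inflammatory transcription. It was at 3.91, 3.32 and 5.36 CPM in the siFLI1 libraries, with 7, 5 and 2 counts, against 11.9, 8.78 and 16.2 CPM in the siControl libraries, with 22, 15 and 19 counts. Every siFLI1 library lay below every siControl library, and the siFLI1 mean was 34.1% of the siControl mean. Its log2 fold change of −1.61 ± 0.62 (± its SE, with a 95% interval of −2.93 to −0.29) was the lowest of the 25 and missed the threshold (adjusted p in edgeR of 0.326, and of 0.349 to 0.711 with 1 library left out). TSC22D3 and FKBP5, which are both strongly raised by glucocorticoids in many tissues, had mean differences of opposite sign, neither past the threshold. As TSC22D3 passed the filter through siControl alone, where it is higher, no conclusion is drawn from this.

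CEBPD, a C/EBP transcription factor that answers quickly to glucocorticoids and to cytokines, was at 174, 165 and 129 CPM in the siFLI1 libraries, against 96.9, 79.7 and 62.4 CPM in the siControl libraries. On this TMM scale, all siFLI1 libraries lay above all siControl libraries. The log2 fold change was 0.98 ± 0.27 (± its SE, with a 95% interval of 0.40 to 1.56 and an adjusted p of 0.117 in edgeR). Leaving out the pair that stood apart, siFLI1 replicate 3 with siControl replicate 1, gave CEBPD a log2 fold change of 1.24. It was then called (adjusted p of 0.0237 in edgeR, where 2.02% of all genes were called). These 2 libraries held its lowest siFLI1 and highest siControl value, so leaving them out widened the gap between the groups. CEBPD was not called without either library alone (edgeR adjusted p of 0.0898 without siFLI1 replicate 3 and 0.101 without siControl replicate 1). Its relative CEBPB averaged 140 ± 22.8 CPM in siFLI1 libraries and 153 ± 30.1 CPM in siControl libraries (SD, n = 3 each), with −0.14 ± 0.26 (SE). The CEBPB row overlaps that of CEBPB-AS1 on the other strand, which held 7 counts in all.

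The remaining regulators were close between the groups or scarce. KLF6, a zinc finger factor of the Krüppel-like family, was at 226, 213 and 209 CPM in the siFLI1 libraries, against 193, 207 and 171 CPM in the siControl libraries. Its groups did not overlap on the TMM scale, yet they lay close, with a log2 fold change of 0.18 ± 0.24 (± its SE, with an adjusted p of 0.857 in edgeR). BCL6, a transcriptional repressor, averaged 51.1 ± 12.1 CPM in siFLI1 libraries and 44.7 ± 3.45 CPM in siControl libraries (SD, n = 3 each). ZBTB16, also called PLZF, was at 9.51, 13.3 and 2.68 CPM in the siFLI1 libraries, against 7.54, 21.1 and 8.55 CPM in the siControl libraries. Its groups overlapped, and its log2 fold change of −0.39 ± 0.61 (SE) turned to 0.22 without siControl replicate 2. The ZBTB16 row stops 6095 bases short of the 3′ end of the RefSeq gene, and these libraries read 3′ ends.

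PER1, a component of the circadian clock with a well known receptor response element, did not pass the filter, at 3.91, 4.65 and 10.7 CPM in the siFLI1 libraries, against 18.3, 5.86 and 3.42 CPM in the siControl libraries. The siControl values were high in replicate 1 alone, and the groups overlapped. KLF9, a further Krüppel-like factor raised by the receptor, had 10, 3 and 2 counts in the siFLI1 libraries and 6, 2 and 3 counts in the siControl libraries. KLF15, which drives amino acid breakdown, had 10, 2 and 1 counts in the siFLI1 libraries and 19, 18 and 7 counts in the siControl libraries. KLF15 was lower in all siFLI1 libraries on the CPM scale, at 1.33 to 5.59 CPM, against 5.98 to 10.5 CPM in siControl, and the ratio of pooled counts was 0.381 (95% counting interval 0.188 to 0.721). With no low-count filter KLF15 came to −1.44 ± 0.89 on the log2 scale (± its SE, with an adjusted p of 0.623 in edgeR), and its row ends 54510 bases before the 3′ end of the RefSeq gene. FOXO3, a forkhead factor of the fasting response, had 22 counts in siFLI1 and 16 in siControl. TFCP2L1 had 2 counts in siFLI1 and 5 in siControl, all in replicate 3 of each group.

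**Figure D2:**
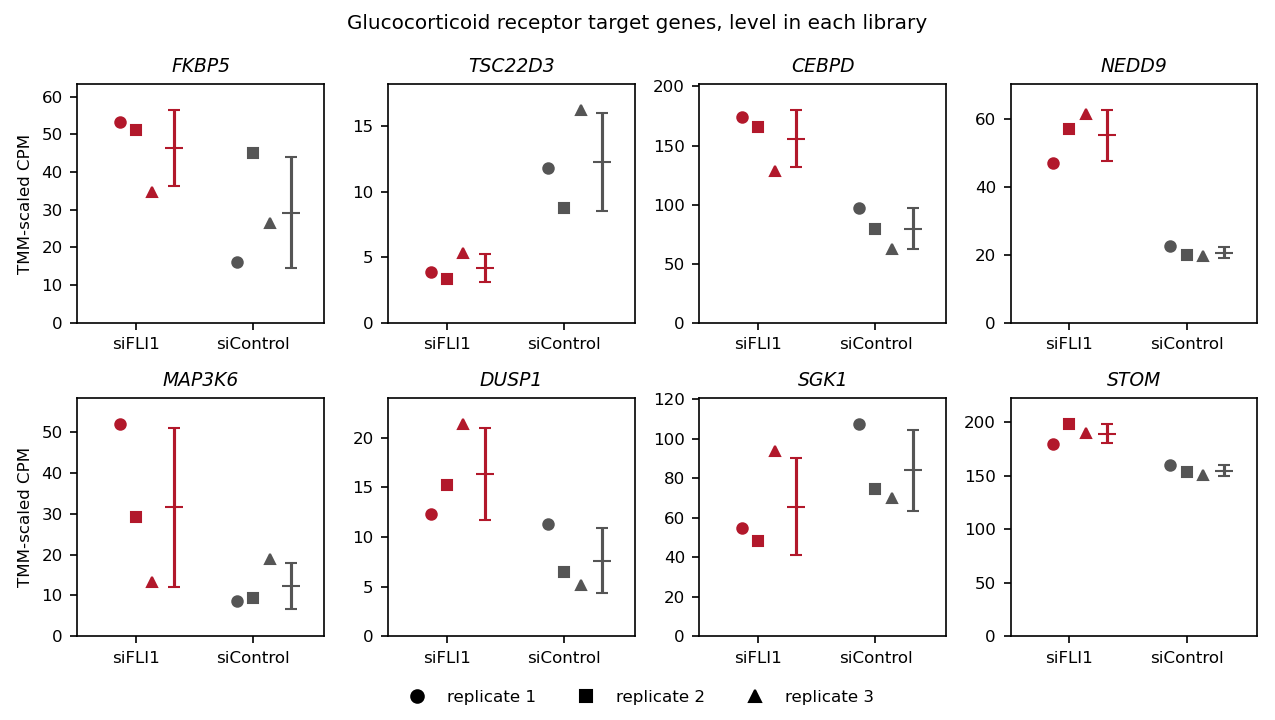
TMM-scaled CPM of 8 members by library on linear axes from 0, with siFLI1 in red and siControl in grey. Symbols mark replicates, and the bar beside each group is its mean ± SD. The groups do not overlap for TSC22D3, CEBPD, NEDD9, DUSP1 and STOM, and overlap for FKBP5, MAP3K6 and SGK1.

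All 8 members of the signalling and stress group passed the filter, 6 with a positive and 2 with a negative log2 fold change. NEDD9, a docking protein of focal adhesions that also takes part in mitotic spindle function, was at 47.0, 57.1 and 61.6 CPM in the siFLI1 libraries, against 22.6, 19.9 and 19.7 CPM in the siControl libraries. The lowest siFLI1 library was above the highest siControl library by about the siControl level itself, and the within-group spread was small in both groups. The log2 fold change of 1.39 ± 0.34 (± its SE, with a 95% interval of 0.67 to 2.11) fell short of the threshold in edgeR (adjusted p = 0.0614). DESeq2 called NEDD9, at 1.38 (adjusted p = 0.0274), and so did edgeR when low-count genes were kept, at 1.34 (adjusted p = 0.0429), where 1.96% of all genes were called. In fits without 1 library its value stayed between 1.32 and 1.502, with edgeR adjusted p from 0.108 to 0.257.

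NEDD9 was also the only member with both a receptor core hexamer and a tandem GGAA in a promoter window, and its upstream sequence is shown for that reason. RefSeq windows of 250 bases before and 50 after a start (GRCh38.p14) were matched for 31 of the 38 members, 55 windows in all, and not for ZBTB16, CEBPD, MT1E, GADD45A, TAT, SCNN1A and IGFBP1. The core hexamer TGTTCT, searched on both strands, was in 16.4% of the members' windows and in 14.8% of all 35114 windows, and the members with it were BCL6, FAM107A, FKBP5, NEDD9, PDK4, PIK3R1 and SGK1. The full palindromic response element, with a spacer of any 3 bases, was in 0 of the members' windows and in 1 of all windows. The tandem GGAAGGAA, a repeated core of ETS binding, also searched on both strands, was in 3.64% of the members' windows and in 3.67% of all. Its matches were in 2 overlapping windows of NEDD9 and in no other member. A further window of NEDD9 held neither the tandem nor the hexamer. Both motifs together, TGTTCT and GGAAGGAA, stood in 0.618% of all windows. The 150 bases before the first NEDD9 start in the table (chr6:11382349-11382498, minus strand) read as follows, with the hexamer, here as its reverse complement, and the tandem in capitals.
NEDD9: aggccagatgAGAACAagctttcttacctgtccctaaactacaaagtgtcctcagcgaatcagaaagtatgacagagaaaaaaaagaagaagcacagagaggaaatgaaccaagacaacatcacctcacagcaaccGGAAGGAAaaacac
The transcript counted for NEDD9 (chromosome 6, 11183298 to 11232682, hg38) begins at another start, and 3′ reads do not tell these starts apart. A match of letters is a description and was not tested as a bound site.

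MAP3K6, a kinase of the stress-activated MAP kinase cascade, was at 52.0, 29.2 and 13.4 CPM in the siFLI1 libraries, against 8.62, 9.37 and 18.8 CPM in the siControl libraries. One siFLI1 library lay below one siControl library, and the siFLI1 values spread more than 3-fold among themselves. The log2 fold change of 1.47 ± 0.52 (± its SE, with a 95% interval of 0.37 to 2.58 and an adjusted p of 0.262 in edgeR) ran from 0.90 without siFLI1 replicate 1 to 1.88 without siControl replicate 3. DUSP1, the phosphatase that switches off MAP kinases and one of the classic anti-inflammatory receptor targets, was at 12.3, 15.3 and 21.4 CPM in the siFLI1 libraries, against 11.3, 6.44 and 5.13 CPM in the siControl libraries. The groups did not overlap on the TMM scale but came within about 1 CPM of each other, and the log2 fold change was 1.001 ± 0.544 (± its SE, with an adjusted p of 0.56 in edgeR). SGK1, a kinase that promotes sodium uptake and cell survival, was at 54.8, 48.5 and 93.7 CPM in the siFLI1 libraries, against 108, 74.4 and 70.1 CPM in the siControl libraries. The high siFLI1 value was replicate 3, the library with the fewest counts, and without it the log2 fold change of −0.42 ± 0.32 (± its SE, with an adjusted p of 0.713 in edgeR) was −0.70.

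Among the other signalling members, the DNA damage and stress genes GADD45A and GADD45B had log2 fold changes of 0.23 ± 0.30 and −0.01 ± 0.45 (SE). GADD45A stood at 209 CPM in siFLI1 replicate 3 and between 102 and 145 CPM in the other 5 libraries, and its log2 fold change was −0.08 without that library. PIK3R1, the regulatory subunit of PI3 kinase, was at 31.9, 33.2 and 8.03 CPM in the siFLI1 libraries, against 17.2, 22.25 and 27.4 CPM in the siControl libraries, so that 2 siFLI1 libraries were the highest of the 6 and the third the lowest. RGS2, an inhibitor of G protein signalling, averaged 18.3 ± 5.45 CPM in siFLI1 libraries and 17.8 ± 5.84 CPM in siControl libraries (SD, n = 3 each).

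Of the 8 metabolic members, 5 passed the filter, 2 with a positive and 3 with a negative log2 fold change, and the groups overlapped for all 5. ANGPTL4, a secreted inhibitor of lipoprotein lipase, was at 67.7, 70.4 and 32.1 CPM in the siFLI1 libraries, against 46.9, 28.1 and 43.6 CPM in the siControl libraries. Its log2 fold change was 0.58 ± 0.35 (± its SE, with an adjusted p of 0.618 in edgeR). SLC19A2, a thiamine transporter, was at 2.24, 8.64 and 26.8 CPM in the siFLI1 libraries, against 14.5, 11.7 and 32.5 CPM in the siControl libraries. Replicate 3 was the highest in each group, and the siFLI1 values spread more widely, relative to their mean, than those of any other of the 25. The log2 fold change of −0.96 ± 0.74 (± its SE, with an adjusted p of 0.715 in edgeR) was −1.84 without siFLI1 replicate 3. Glutamine synthetase, GLUL, averaged 41.0 ± 10.9 CPM in siFLI1 libraries and 48.3 ± 7.46 CPM in siControl libraries, and LPIN1, a phosphatidate phosphatase, averaged 52.8 ± 17.6 CPM in siFLI1 libraries and 64.7 ± 27.1 CPM in siControl libraries (SD, n = 3 each). LPIN1 turned from −0.25 on the log2 scale to 0.13 without siControl replicate 1. METTL7A, a methyltransferase-like protein, had 25 and 29 counts in siFLI1 replicates 1 and 2 and 0 in replicate 3, where 0 counts allow up to 8.03 CPM (3 counts), against 5.98 to 10.2 CPM in siControl. IGFBP1, a secreted binder of insulin-like growth factors, had 1 count in siFLI1 and 0 in siControl. PDK4, a kinase that shuts down pyruvate dehydrogenase, had 1 count in siFLI1 and 3 in siControl, all in replicate 3 of each group. TAT, the tyrosine aminotransferase long used as a model of receptor action in liver cells, had 3 counts, all in siFLI1 replicate 3, and 0 in siControl. Its row overlaps that of TAT-AS1 on the other strand and ends 1191 bases short of the RefSeq gene.

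The 3 metallothioneins, small metal-binding proteins raised by glucocorticoids and, above all, by zinc and other metals, all passed the filter and all overlapped between groups. MT2A was at 8089, 7872 and 2897 CPM in the siFLI1 libraries, against 4669, 8275 and 11020 CPM in the siControl libraries. Libraries of one group differed more than 2-fold from each other, and the 2 lowest values were those of siFLI1 replicate 3 and siControl replicate 1, which stood apart. The log2 fold change of −0.34 ± 0.46 (± its SE, with an adjusted p of 0.864 in edgeR) was −0.65 without siControl replicate 1 and −0.001 without siFLI1 replicate 3. MT1E averaged 96.1 ± 22.2 CPM in siFLI1 libraries and 82.3 ± 11.2 CPM in siControl libraries, and MT1X was at 24.0, 43.85 and 72.3 CPM in the siFLI1 libraries, against 42.0, 15.8 and 17.1 CPM in the siControl libraries. Within each group MT1X was highest where MT2A was lowest, in siFLI1 replicate 3 and siControl replicate 1, the libraries that stood apart. The family thus did not move together across libraries. MT1F, a family member outside the 38, was lowest in the same pair of libraries as MT2A, at 66.9 CPM in siFLI1 replicate 3 and 78.6 CPM in siControl replicate 1, against 240 to 355 CPM in the other siFLI1 and 254 to 315 CPM in the other siControl libraries. Metallothionein genes are near-identical in sequence and lie side by side on chromosome 16, so reads could be split or shared among them. Of 13 further metal-responsive genes, 7 passed the filter and 0 were called in edgeR, DESeq2 or limma-voom, with 0 at an unadjusted edgeR p under 0.05 and a median of 0.20 on the log2 scale. Those with the smallest p were the zinc exporter SLC30A1 (−0.48 ± 0.39), MT1G (−0.58 ± 0.48) and the heat shock gene HSPA1A (0.20 ± 0.30, log2 scale ± SE), each with overlapping groups. Without MT2A, the summed level of the 38 members was 1563 to 1625 CPM in siFLI1 and 1281 to 1485 CPM in siControl, and with it 4522 to 9671 CPM in siFLI1 and 6155 to 12300 CPM in siControl, so a sum over the list mostly follows this 1 gene.

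**Figure D3:**
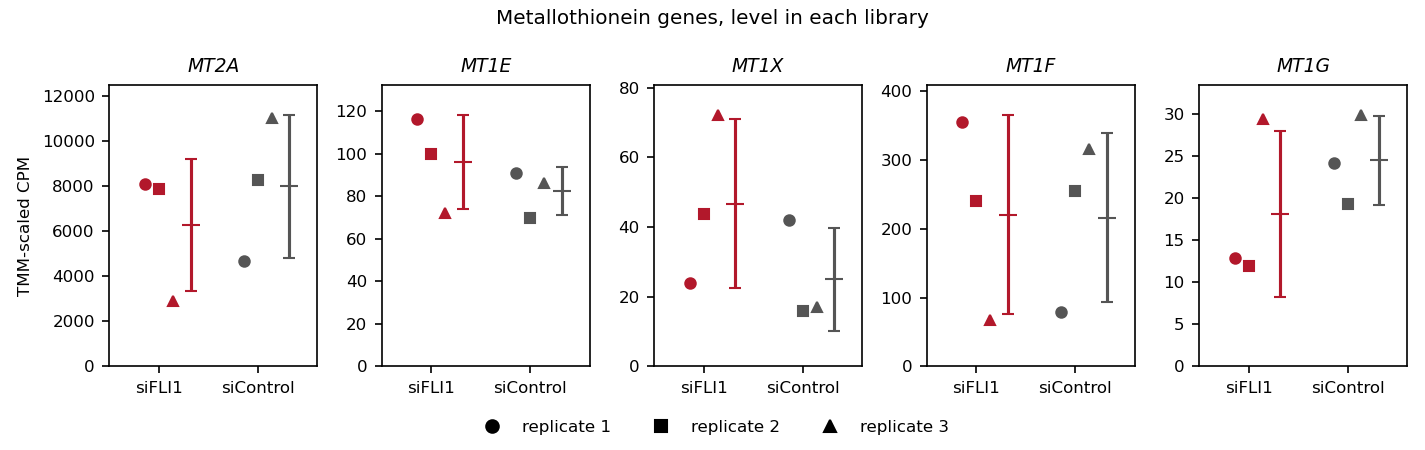
TMM-scaled CPM of 5 metallothionein genes by library on linear axes from 0, with siFLI1 in red and siControl in grey; MT2A, MT1E and MT1X are members. Symbols mark replicates, and the bar beside each group is its mean ± SD. MT2A and MT1F are lowest in siFLI1 replicate 3 and siControl replicate 1, and the groups overlap in every panel.

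The upstream sequences of MT2A and MT1X are shown because metal and glucocorticoid signals meet at these promoters. The core of the metal response element was searched on both strands as TGCACNC, found in 12.1% of all windows, and as TGCGCNC, found in 20%. The window of MT2A held 8 such cores, as many as or more than which stood in 0.0199% of all windows, and that of MT1X held 4, reached by 0.601%. The receptor hexamer, searched only as the exact letters TGTTCT, was in neither window. Variants of it and sites further upstream were not searched, so this does not show that a receptor site is absent. The 170 bases before each start, on the plus strand at chr16:56608414-56608583 for MT2A and chr16:56682300-56682469 for MT1X, are given with the cores in capitals, 6 of them in the stretch of MT2A and 4 in that of MT1X, with no match overlapping another. The number of cores was counted after these sequences were seen.
MT2A: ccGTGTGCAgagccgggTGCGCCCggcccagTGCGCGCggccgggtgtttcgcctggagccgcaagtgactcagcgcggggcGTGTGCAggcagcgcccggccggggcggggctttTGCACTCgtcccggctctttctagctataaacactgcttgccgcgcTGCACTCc
MT1X: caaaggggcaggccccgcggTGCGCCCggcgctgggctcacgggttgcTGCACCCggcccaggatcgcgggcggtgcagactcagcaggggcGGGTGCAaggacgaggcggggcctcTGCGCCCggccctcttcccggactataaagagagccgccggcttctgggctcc
Both carry several cores close to the start, while the levels of the pair differed in which library was highest.

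Of the 7 membrane, secreted and other members, 2 passed the filter. STOM, stomatin, an integral membrane protein, was at 180, 198 and 190 CPM in the siFLI1 libraries, against 160, 153 and 150 CPM in the siControl libraries. On the TMM scale the groups did not overlap and the spread within each was under 5% of the mean. The log2 fold change was 0.29 ± 0.23 (± its SE, with an adjusted p of 0.738 in edgeR). TIPARP, a mono-ADP-ribosyltransferase that damps the aryl hydrocarbon receptor, was at 43.6, 49.8 and 50.9 CPM in the siFLI1 libraries, against 81.3, 77.9 and 50.4 CPM in the siControl libraries. The siControl replicate 3 value lay among the siFLI1 values, and the log2 fold change was −0.56 ± 0.30 (± its SE, with an adjusted p of 0.563 in edgeR). CRISPLD2, a secreted protein raised by glucocorticoids in airway smooth muscle, had 7, 8 and 4 counts in the siFLI1 libraries and 0, 1 and 1 counts in the siControl libraries. It lay higher in all siFLI1 libraries, at 12.3-fold by pooled counts (95% counting interval 2.96 to 109), and was not called with no low-count filter (adjusted p of 0.343 in edgeR).

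The rest of this group was at or near 0. The epithelial sodium channel subunit SCNN1A and the leukotriene pathway protein ALOX5AP had 0 counts in all 6 libraries, which allows up to 8.03 CPM in siFLI1 replicate 3 and 1.62 to 2.56 CPM in the other 5. LCN2, a neutrophil lipocalin, had 1 count in siFLI1 and 0 in siControl, and FAM107A, an actin-binding protein of brain, had 0 counts in siFLI1 and 1 in siControl. The SCNN1A row overlaps that of LTBR on the other strand.

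The receptor and its other targets were set beside these members. NR3C1 was at 33.5, 31.2 and 26.8 CPM in the siFLI1 libraries, against 17.8, 14.1 and 21.4 CPM in the siControl libraries, without overlap (log2 fold change 0.81, SE 0.39, with an adjusted p of 0.495 in edgeR). Of 25 genes of the receptor, its chaperones and cofactors, 23 passed the filter and 0 were called in edgeR, DESeq2 or limma-voom. At an unadjusted edgeR p under 0.05, 0 were higher (against 6.62% of all genes) and 2 lower (8.7% against 4.13%), the HSP90 activator AHSA1 (−1.07 ± 0.40) and HSP90AA1 itself (−0.65 ± 0.30, log2 scale ± SE). The groups did not overlap for 5 lower genes of these 23 (21.7% against 7.71% of all genes) and for 1 higher gene, NR3C1 (4.35% against 8.93%). Of 28 further glucocorticoid-induced genes in the table, of which HSD11B1 is also in the list before, 20 passed the filter, 2 rose and 1 fell past the threshold in edgeR, where 1.34% of all tested genes were higher and 0.117% lower. The median of these 20 was 0.54 on the log2 scale, against 0.01 over all tested genes. Groups did not overlap for 6 higher genes of the 20 (30% against 8.93% of all genes) and 2 lower genes (10% against 7.71%). ERRFI1, an inhibitor of the EGF receptor, rose by 2.39 ± 0.29 on the log2 scale (± its SE, with an adjusted p of 0.000288 in edgeR), and PHLDA1 by 2.25 ± 0.27. IRS2, an insulin receptor substrate, fell by 1.15 ± 0.25 (log2 scale, SE; edgeR adjusted p = 0.036). ERRFI1 and PHLDA1 were called in all 6 fits without 1 library, and IRS2 in 0 (adjusted p of 0.0552 to 0.196 in edgeR).

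Of 19 genes that glucocorticoids repress, mostly cytokines and adhesion molecules, 17 passed the filter, 4 rose and 0 fell past the threshold in edgeR, set against the same 1.34% and 0.117% of all genes, and the median was 0.96 on the log2 scale. The groups did not overlap for 9 higher genes (52.9% against 8.93% of all genes) and 2 lower genes (11.8% against 7.71%), MMP1 and CCL20. MMP1 averaged 7036 CPM in siFLI1 and 11200 CPM in siControl libraries. The summed level of the list was 10440 to 11480 CPM in siFLI1 and 12460 to 13950 CPM in siControl libraries. The chemokine CXCL1 rose by 3.47 ± 0.28, the growth factor CSF2 by 3.58 ± 0.50, the cytokine IL6 by 2.66 ± 0.51 and the adhesion molecule VCAM1 by 1.96 ± 0.34 on the log2 scale (SE; edgeR adjusted p from 9.53e-06 to 0.0148). CXCL1 and CSF2 were called in all 6 fits without 1 library, and VCAM1 and IL6 in 3 each, with both lost when replicate 2 of siFLI1 or replicate 2 or 3 of siControl was left out. Called genes were thus found among both the induced and the repressed lists outside the 38 members. Over all tested genes, 126 of the 137 called were higher in siFLI1 and 11 lower. The difference between these lists was not tested, and they were chosen with earlier results of these data known.

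**Figure D4:**
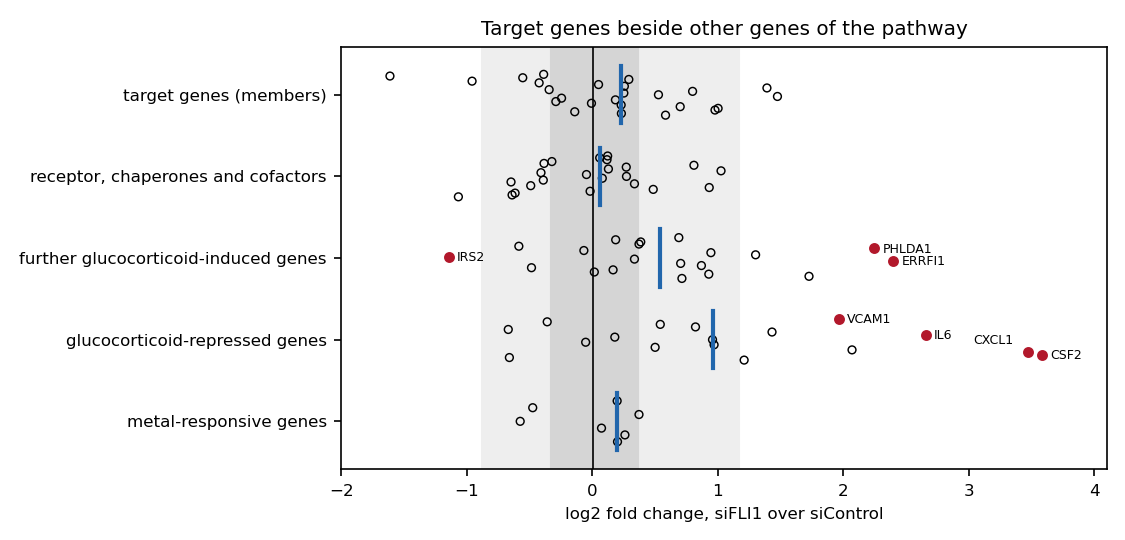
Log2 fold change of siFLI1 over siControl for the tested genes of 5 lists, 1 point a gene, with genes past an adjusted p of 0.05 (edgeR) filled in red and named, and the median of each list as a blue bar. The grey bands span the 5th to 95th and the 25th to 75th percentile of all 9420 genes, and the thin black line is their median of 0.01. No member of the target gene list is red, and its median is 0.23.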

How the data were processed

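The deposited values are raw counts, summed by the authors over the exons of a single RefSeq transcript for each gene, from 3′ libraries of a bulk form of MARS-seq, per the file header and the labels' protocols. The submitters' processing notes name hg38, bcl2fastq, HISAT 0.1.5 and HOMER. The sources used here do not give whether molecular barcodes were collapsed or strand was used, so counts may include PCR copies and antisense genes may share reads. Intervals and floors from counts (3 counts) cover counting error only. Transfections were in triplicate, but nothing in the labels ties libraries to separate cultures, so p-values measure the spread between libraries, which may be technical. No libraries of a group matched within sampling noise (lowest ratio of chi-square to its degrees of freedom, 6.78).

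Genes were kept by filterByExpr (minimum count 10, total 15) and tested with edgeR 4.0.16 in R 4.3.3 (TMM scaling, robust quasi-likelihood fit, two-sided, group as the only term), with standard errors and 95% intervals derived from the F statistic. DESeq2 1.42.0 and limma 3.58.1 (voom) were alternatives. The edgeR fit was tested on simulated counts. The members, gene lists and tests were chosen with earlier results of these data known. Members past the filter with an unadjusted p below 0.05 or groups without overlap, and FKBP5, TSC22D3, PER1, ZBTB16, KLF9, DUSP1 and SGK1, are given by library, the others in brief. Of other lists, genes past the threshold and some with the smallest p are named. A gene of the further induced list is not reported here and was left out of its counts.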

Additional observations from a re-analysis of the deposited data

How the results depend on the processing

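With 3 libraries a group at these depths, a member could differ without passing the test, whether it had few counts, as TSC22D3 and KLF15 did, or more. The count of members called lower was 0 under every alternative run, and that of members called higher was 0 except for 1 (NEDD9) with no low-count filter and in DESeq2, and 1 (CEBPD) without siFLI1 replicate 3 and siControl replicate 1. Over all genes, 137 were called, against 368 with no low-count filter, 217 in DESeq2, 193 without that pair and 65 to 126 without 1 library. The members' median log2 fold change of 0.23 was 0.11 under total counts, 0.18 with no filter (which moved the median of all genes to 0.12), 0.18 with at least 5 CPM in 3 libraries, 0.067 to 0.247 without 1 library and 0.30 without the pair that stood apart. Further induced genes called numbered 3, against 2 without any 1 library. Repressed genes called numbered 4, against 2 to 5 without 1 library and 7 without that pair.

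Of 585 values of 39 named genes over 15 alternatives, 554 kept their direction and their side of the threshold. Directions turned for 5 genes, none of them called. RGS2 turned to −0.077 under total counts and ran from −0.24 to 0.30 without 1 library. GADD45B ran from −0.27 to 0.28, GADD45A from −0.08 to 0.44, LPIN1 from −0.50 to 0.13 and ZBTB16 from −0.79 to 0.22. Without the pair that stood apart, GADD45B was at 0.18, GADD45A at −0.17 and LPIN1 at 0.32. The causes were not tested. With the replicate number as a block, 0 members and 101 genes were called, GADD45B was at 0.023 and IRS2 was not called (−1.13, edgeR adjusted p = 0.108). Deviations of libraries with the same number correlated at −0.0472 to −0.0122, and those with different numbers at −0.0909 to 0.12. Each deviation is from a mean of only 3 libraries, so these values cannot settle whether the numbers pair the libraries.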
